A study of Mus musculus with 10 samples.

Results

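The Homer genes encode scaffold proteins of the excitatory synapse, and all of their probe sets were read one by one on Affymetrix Mouse Genome 430 2.0 arrays of mouse hippocampus. A probe set is a group of short oligonucleotides that reads 1 stretch of a transcript, most often near its 3' end, so that probe sets of 1 gene can report different transcripts. The members were every probe set that the platform annotation gives to Homer1, Homer2 or Homer3: 6 for Homer1, 3 for Homer2 and 1 for Homer3, which made 3 genes of 18193 named by probe sets with 1 gene, and 10 probe sets of 45037 that were not array controls. All 10 passed the filter on low signal that left 27023 probe sets for testing. The genes were chosen by results of these data: the Homer1 probe sets had been seen to disagree in the A-CREB kainate groups against A-CREB saline. Homer1 values in those contrasts, and in the genotype difference that contains one of them, are a description without a p-value. The other genotype comparisons and the dose comparison reuse A-CREB arrays of those contrasts. Homer1 tests and counts there are not independent of the selection, and nothing is read from them.

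The 10 arrays fell into 5 groups of 2. Wild-type mice (strain label C57BL6 F1/J, which is missing on 2 of their arrays) received saline or 14 mg/kg kainate. Mice labelled TetO-A-CREB-95 C57BL6 F1/J received saline, 14 mg/kg or 18 mg/kg kainate, and there was no wild-type group at 18 mg/kg. A-CREB is a dominant-negative inhibitor that keeps the transcription factor CREB and its close relatives off DNA, here under a tetracycline-responsive promoter. Which line drove it, in which cells, and the level of the transgene were not given in the sources used here. Kainate is an agonist of a class of glutamate receptors that provokes seizures and strong neuronal firing. The time from injection to dissection was likewise not given. All mice were 3 weeks old. Each array held hippocampal RNA pooled from 3 to 4 mice, and 14 wild-type and 20 A-CREB mice were used in all, so every standard error and p-value below measures the spread between pools. In whole tissue, fewer cells of a type and less RNA per cell cannot be told apart.

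Homer proteins carry an N-terminal domain that grips a proline-rich motif in metabotropic glutamate receptors of group I, in inositol trisphosphate and ryanodine receptors of the endoplasmic reticulum, and in Shank, the master scaffold of the postsynaptic density. The long forms add a coiled coil that lets Homer proteins join to each other and so tie these partners together. Homer1 also makes a short form, Homer1a, that ends within the gene, lacks the coiled coil, and is known as an immediate early gene of neurons: once made, it competes with the long forms and loosens the links they hold. Homer2 and Homer3 are known mainly as constitutive members, Homer3 being most abundant in cerebellar Purkinje cells. Which of the Homer1 probe sets read the short form and which the long forms could not be read from the sources used here, and none is assigned below.

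In GRCm38.p6, the mouse assembly of the RefSeq tables used here, Homer1 spans chr13:93303757-93405129, Homer2 chr7:81600481-81706925 and Homer3 chr8:70282880-70294361. The 300-base windows around an annotated start of each gene (250 bases before it and 50 after; for Homer3 the start lies inside the span given) are shown because CREB, which A-CREB blocks, binds the cAMP response element (CRE), TGACGTCA, or its half-site, TGACG. They are in the direction of the gene, with half-sites in capitals.

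Homer1, chr13:93303507-93303806, plus strand: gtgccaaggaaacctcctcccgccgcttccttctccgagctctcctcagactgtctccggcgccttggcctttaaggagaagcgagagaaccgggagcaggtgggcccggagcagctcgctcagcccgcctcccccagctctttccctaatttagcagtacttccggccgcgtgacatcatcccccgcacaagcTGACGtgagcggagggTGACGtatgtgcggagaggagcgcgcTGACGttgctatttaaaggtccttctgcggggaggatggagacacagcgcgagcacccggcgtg

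Homer2, chr7:81706876-81707175, minus strand: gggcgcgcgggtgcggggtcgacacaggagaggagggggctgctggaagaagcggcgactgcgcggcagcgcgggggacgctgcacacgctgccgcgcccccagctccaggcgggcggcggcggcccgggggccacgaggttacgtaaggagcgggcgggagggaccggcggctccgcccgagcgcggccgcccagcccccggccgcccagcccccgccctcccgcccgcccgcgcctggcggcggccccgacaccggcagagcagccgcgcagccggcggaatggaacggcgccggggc

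Homer3, chr8:70282749-70283048, plus strand: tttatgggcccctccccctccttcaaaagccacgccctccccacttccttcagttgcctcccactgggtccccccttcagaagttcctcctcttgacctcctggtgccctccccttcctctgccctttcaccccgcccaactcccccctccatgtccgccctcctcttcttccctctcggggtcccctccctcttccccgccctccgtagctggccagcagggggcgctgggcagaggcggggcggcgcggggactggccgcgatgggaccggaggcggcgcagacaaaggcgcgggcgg

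The Homer1 window held 3 half-sites, all on the strand of the gene. Their first bases lay at -56, -40 and -14 from the start. At least 3 half-sites occurred in 340 of the 32851 RefSeq windows of this length (1.035%), and at least 1 in 20.81%, with both strands searched, so that a full CRE counts as 2 half-sites. The G and C content was 63% in the Homer1 window shown, 82.33% in that of Homer2 and 69.67% in that of Homer3. Over all windows its median was 52.67%, and none of the shares given here is matched for it. The Homer1 window held no full CRE, which 1.79% of windows have, and no match to AP-1 (TGANTCA, 7.808% of windows), Egr (GCGNGGGCG, 5.552%), a CArG box (1.629%) or a MEF2 box (3.187%). The Homer2 and Homer3 windows had no half-site and 1 Egr match each, and the second annotated windows of Homer1 and Homer2 matched none of these motifs. Such a match describes letters and not a bound site, and a lack of one says only that these letters are not in these windows.

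Of 3 genes taken as a check of kainate, 2 passed in every kainate comparison. Fos, an immediate early transcription factor, rose by a log2 change of 3.26 in wild type (SE 0.22, adjusted p = 0.00083, limma, n = 2 arrays a group), and Npas4, an activity-dependent transcription factor of neurons, by 5.53 (SE 0.27, adjusted p = 0.000115). In A-CREB the changes were 3.52 and 3.30 for Fos, and 6.32 and 5.97 for Npas4, at the lower and the higher dose, and each passed. The third, Arc, an activity-regulated gene of synapses, had log2 changes of 1.99 in wild type and 2.99 and 2.73 in A-CREB (SE 0.60) and did not pass (adjusted p = 1, 0.185 and 0.392, limma; with the block 0.154, 0.00954 and 0.0280). All 12 of 12 hippocampal neuron markers passed the filter, and their summed signal ran from 25039 to 28469 on the wild-type and A-CREB saline arrays, from 19025 to 24628 after 14 mg/kg in A-CREB and from 21936 to 22547 after 18 mg/kg. Summed striatal markers (10 of 12 found) were 18265 on 1 wild-type kainate array, replicate 2, and between 5253 and 8706 on the 9 others. Of 5 cerebellar markers, Pcp2, Gabra6 and Cbln3 were below the filter, and Calb1 and Car8 passed it; the sum of the 5 ran from 4372 to 5775. After kainate the summed microglial markers (5 of 5 passed the filter) were 6826 to 6950 in wild type and 9028 to 10762 in A-CREB, and the astrocyte markers (5 of 5) 20117 to 23494 and 24735 to 29641. Csf1r was the largest part of the microglial sum, at 4172 and 4253 in wild type and 5746 to 7274 in A-CREB. Taken singly, Cx3cr1, P2ry12, Tmem119, Aldh1l1 and Slc1a3 overlapped between genotypes after kainate, and Csf1r, Aif1, Gfap, Aqp4 and Gja1 did not. The A-CREB side of these comparisons holds both doses, and wild type the lower one only. The share of all probe sets without overlap there was not computed, so nothing is read from it. In the saline groups the sums of the genotypes overlapped for microglia (7358 to 8755 and 7381 to 9171) and for astrocytes (21884 to 25257 and 24816 to 29313). Without the wild-type kainate replicate 2 array, the wild-type changes of the 3 Homer1 probe sets described first below were 3.04 (1425671_at), 2.20 (1436387_at) and 1.28 (1421768_a_at). These were close to the values with it. The part of these marker differences in the other results was not tested.

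Of all 10 probe sets, Homer1 1425671_at had the largest wild-type change. Its signal (MAS5 units, linear, each array scaled to the same mean) was 190 and 46.5 on the wild-type saline arrays and 971 and 866 on the wild-type kainate arrays. In A-CREB it was 91.3 and 103 after saline, 940 and 1154 after 14 mg/kg, and 441 and 1046 after 18 mg/kg. The lowest kainate array, A-CREB at 18 mg/kg replicate 1, was therefore above the highest saline array, wild-type replicate 1. On the log2 scale (log2 of signal plus 22, which understates the change of dim probe sets) the wild-type change was 2.96 (SE 0.51, 95% interval 1.82 to 4.11), or 7.79-fold higher after kainate, with an unadjusted p = 0.000215 and an adjusted p = 0.162 (limma). With the replicate number as a block, which lets arrays of the same number be compared, the adjusted p was 0.0185 (limma). Within replicate number 1 the wild-type change was 2.23 and within number 2 it was 3.70. The A-CREB changes, given as a description, were 3.16 at 14 mg/kg (interval 2.02 to 4.31, 8.95-fold) and 2.57 at 18 mg/kg (interval 1.42 to 3.71, 5.92-fold).

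Homer1 1436387_at behaved alike. Its signal was 4297 and 1726 after saline and 12575 and 10812 after kainate in wild type. In A-CREB it was 1465 and 1152 after saline, 11377 and 14007 after 14 mg/kg, and 6309 and 10497 after 18 mg/kg. Again no kainate array overlapped a saline array: the 4 saline arrays had a median of 1595 and the 6 kainate arrays one of 11095. The wild-type log2 change was 2.09 (SE 0.39, interval 1.22 to 2.96, 4.25-fold), with an unadjusted p = 0.000377, an adjusted p = 0.224 (limma) and an adjusted p = 0.0243 with the replicate block. The A-CREB changes were 3.26 at 14 mg/kg (interval 2.39 to 4.13, 9.57-fold) and 2.63 at 18 mg/kg (interval 1.76 to 3.50, 6.18-fold). The size of the wild-type change leaned on the 2 saline arrays, which lay further apart than those of any other group: without replicate 1 it was 2.74, and without replicate 2 it was 1.44. For 1425671_at the same omissions gave 3.78 and 2.15. Within replicate number 1 the change of 1436387_at was 1.54, and within number 2 it was 2.63.

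The third Homer1 probe set with higher kainate signal, 1421768_a_at, is of the kind whose suffix (_a_at) marks probes shared by several transcripts of the gene. It read 562 and 190 after saline and 835 and 641 after kainate in wild type. On the A-CREB arrays it read 458 and 287 after saline, 666 and 705 after 14 mg/kg, and 412 and 650 after 18 mg/kg. The wild-type arrays did not overlap, whereas at 18 mg/kg replicate 1 lay between the A-CREB saline arrays. The wild-type log2 change of 1.10 (SE 0.44, interval 0.11 to 2.09, 2.14-fold) had an unadjusted p = 0.0332 and did not pass the adjusted test (adjusted p = 1, and 0.425 with the block, limma); without saline replicate 2 it was 0.37 and without replicate 1 it was 1.83. The A-CREB changes were 0.88 (interval -0.11 to 1.87) and 0.49 (interval -0.50 to 1.48) at 14 and 18 mg/kg.

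**Figure D1:**
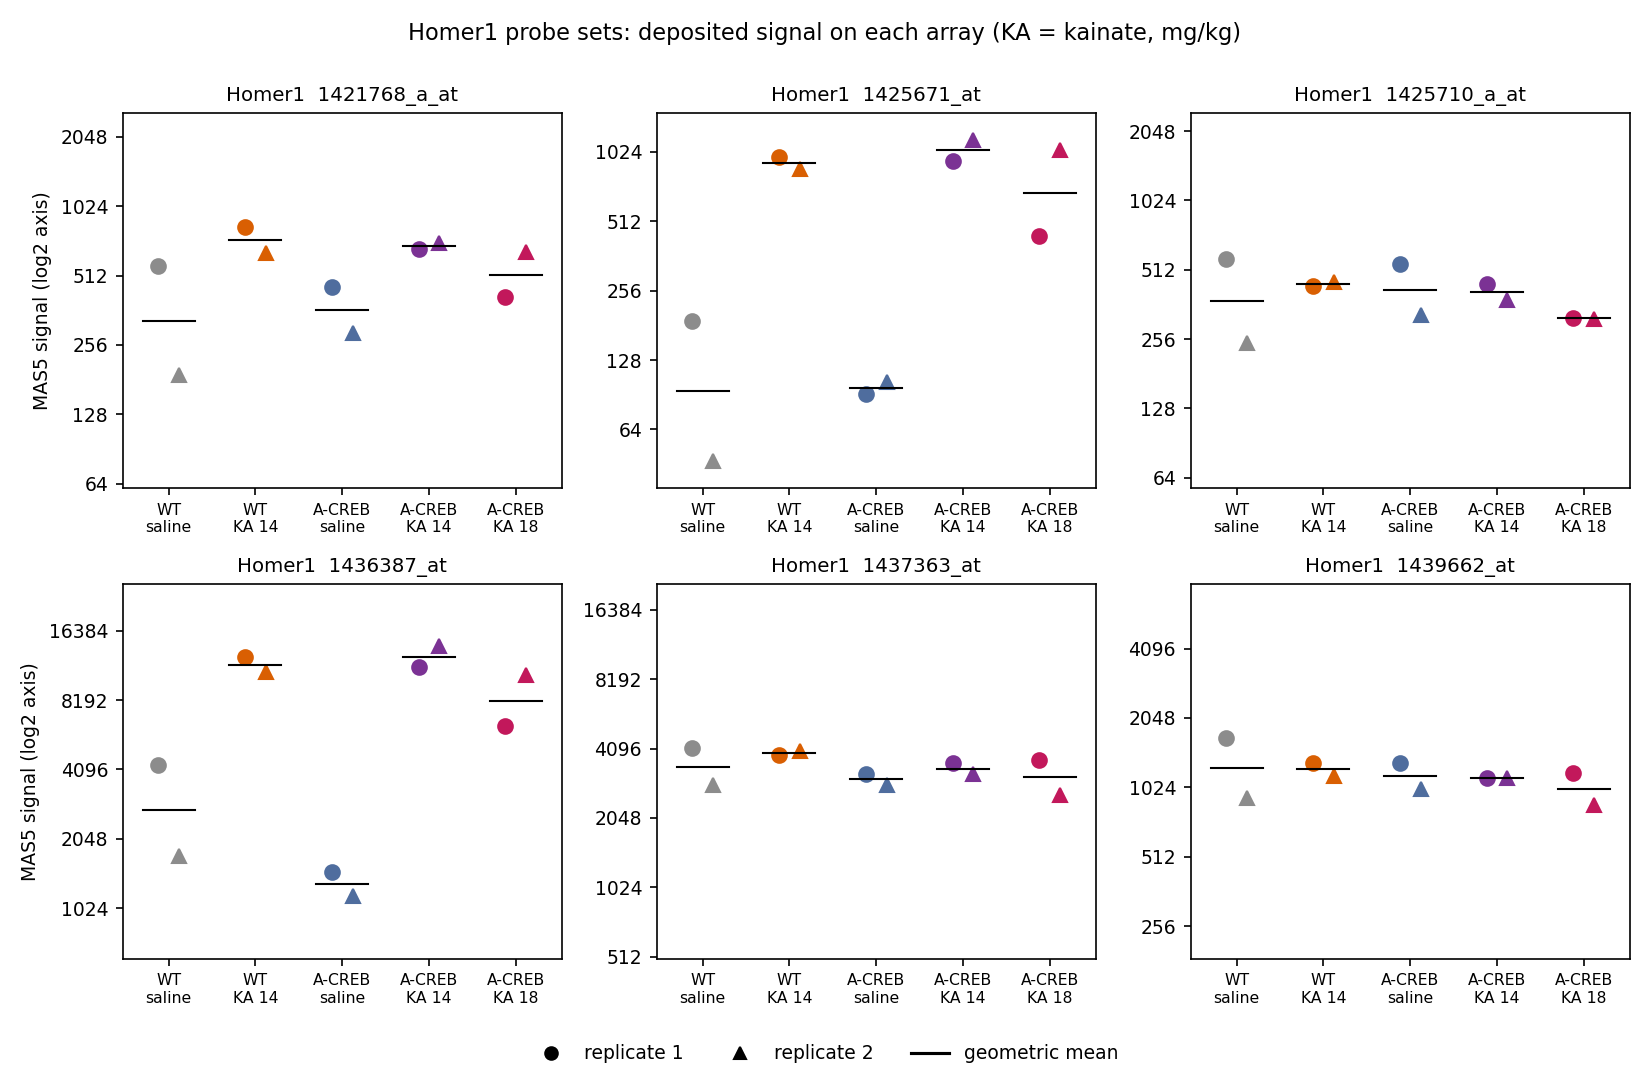
Deposited MAS5 signal (log2 axis, the same span in every panel) of the 6 Homer1 probe sets on each of the 10 arrays, by group; circles are replicate 1, triangles replicate 2 and lines the geometric mean of the 2. On 1425671_at and 1436387_at the 6 kainate arrays lie above the 4 saline arrays, while on 1425710_a_at, 1437363_at and 1439662_at the 6 kainate and 4 saline arrays overlap.

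The other Homer1 probe sets stayed near their saline level. The brightest of them, 1437363_at, read 4111 and 2843 after saline and 3836 and 3980 after kainate in wild type. Its A-CREB signals were 3180 and 2851 after saline, 3532 and 3189 after 14 mg/kg, and 3656 and 2585 after 18 mg/kg. Both A-CREB arrays at 14 mg/kg were above both A-CREB saline arrays, the nearest being 3189 against 3180. Its log2 change was 0.19 in wild type (interval -0.31 to 0.69, adjusted p = 1, limma), and 0.16 and 0.03 in A-CREB at the lower and the higher dose. The intervals thus left room for changes of up to 0.69 on the log2 scale in wild type, well short of the lower bounds of 1425671_at (1.82) and 1436387_at (1.22).

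Homer1 1439662_at read 1674 and 925 after saline and 1307 and 1150 after kainate in wild type. Its A-CREB signals were 1307 and 1005 after saline, 1126 and 1126 after 14 mg/kg, and 1180 and 860 after 18 mg/kg. The log2 changes were -0.02 in wild type (interval -0.66 to 0.62, adjusted p = 1, limma), -0.03 in A-CREB at 14 mg/kg and -0.18 at 18 mg/kg. The saline arrays of wild type spanned all the other arrays but the lowest.

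Homer1 1425710_a_at, the second probe set shared by several transcripts, read 572 and 247 after saline and 434 and 454 after kainate in wild type. In A-CREB it read 544 and 325 after saline, 443 and 377 after 14 mg/kg, and 317 and 313 after 18 mg/kg. The log2 change was 0.22 in wild type (SE 0.36, interval -0.60 to 1.04, adjusted p = 1, limma), -0.04 in A-CREB at 14 mg/kg and -0.39 at 18 mg/kg (interval -1.21 to 0.43). Both arrays at 18 mg/kg were below both A-CREB saline arrays, by a margin smaller than the gap between those saline arrays.

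The Homer1 probe sets therefore disagreed in every kainate comparison, by a range in wild type from -0.02 to 2.96, that is 2.98 on the log2 scale. Among the 1031 genes with at least 4 tested probe sets the median range in wild type was 0.42 and the 95th percentile 1.04, and Homer1 had the widest, ahead of Samhd1 with 2.13. In A-CREB, where the disagreement was what drew attention to the gene, the range was 3.30 at 14 mg/kg (median of genes 0.45) and 3.02 at 18 mg/kg (median 0.47). It stood second among genes, not first, in wild type where saline replicate 2 was left out (2.59), where kainate replicate 1 was left out (2.99), or where low signals were not filtered. Saline arrays are shared between the A-CREB comparisons, so those ranges are not separate evidence. A gene with more probe sets has more room to differ, and Homer1 has 6.

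In counts, 0 of the 10 Homer probe sets passed the adjusted test in wild type, where 17 of 27023 probe sets did (0.0629%, all higher). With the replicate block 2 of 10 passed, 1425671_at and 1436387_at, against 0.337% of all probe sets, and 3 of 10 against 2.7% had an unadjusted p under 0.05. The A-CREB counts that follow come from the contrasts that selected Homer1, so that they describe the selection and nothing is read from them. In A-CREB at 14 mg/kg 1 of 10 passed, 1436387_at, against 0.174% (2 of 10 against 0.729% with the block, and 2 of 10 against 3.83% at an unadjusted p under 0.05). At 18 mg/kg the count was 0 of 10 against 0.0703% (2 of 10 against 0.359% with the block, and 2 of 10 against 2.48% at an unadjusted p under 0.05). All 6 kainate arrays were above all 4 saline arrays for 2 of 10 Homer probe sets, against 1.57% of all probe sets, and below them for 0 of 10, against 1.52%. These arrays include the 6 A-CREB arrays on which Homer1 was selected, so nothing is read from that count either. The A-CREB count at 14 mg/kg was 0 without either A-CREB saline array or either A-CREB array at 14 mg/kg, and 2 without either wild-type saline array or either A-CREB array at 18 mg/kg. At 18 mg/kg it was 1 without either wild-type saline array.

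**Figure D2:**
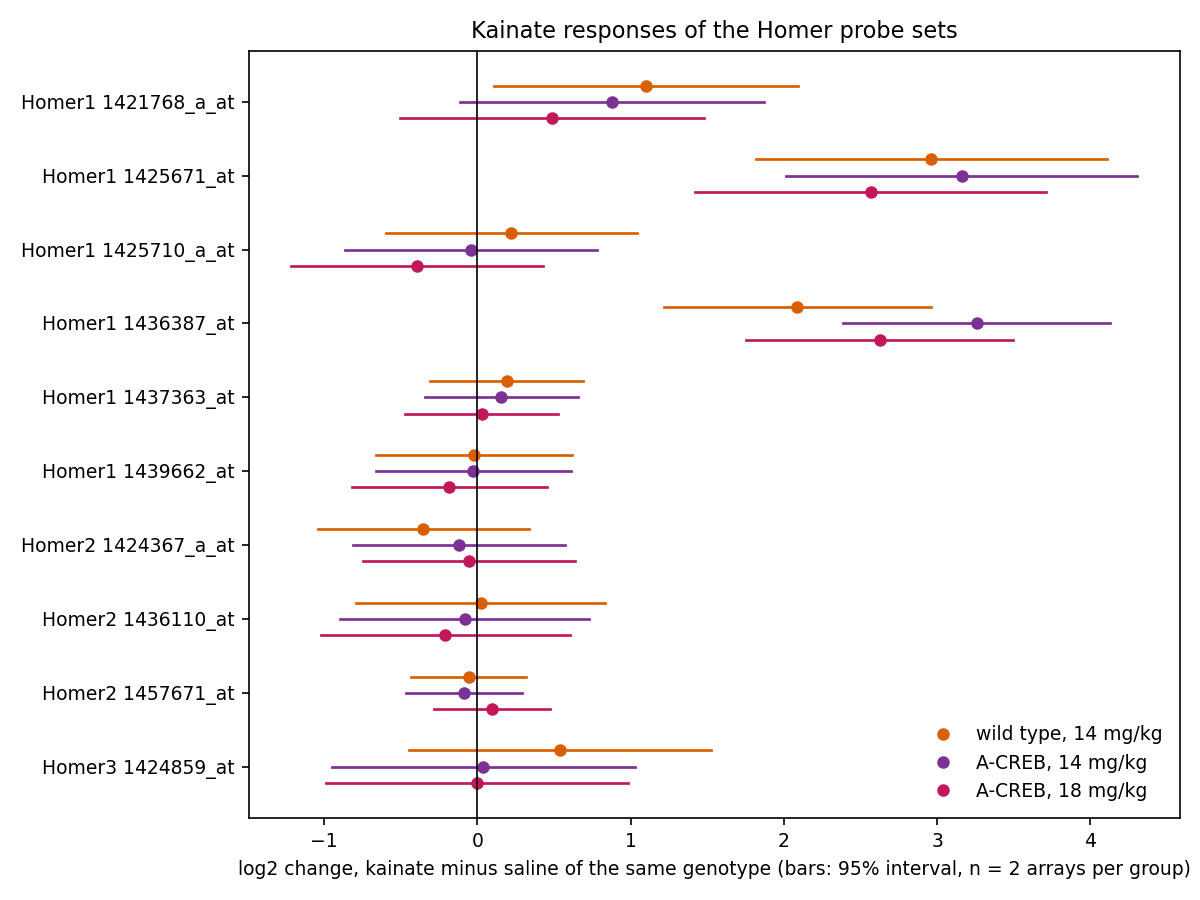
Log2 change of each Homer probe set, kainate minus saline of the same genotype, with the 95% interval from the fit over all 10 arrays (n = 2 arrays a group), for wild type at 14 mg/kg and A-CREB at 14 and 18 mg/kg. In wild type the intervals of 1425671_at and 1436387_at lie above 1, that of 1421768_a_at lies above 0, and those of the other probe sets include 0. The A-CREB intervals of Homer1 are a description, since the gene was selected in those contrasts.

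Ordered by mean log2 level, 1425671_at was lowest in A-CREB saline (6.89, SD 0.10) and wild-type saline (6.91, SD 1.15), then came A-CREB at 18 mg/kg (9.46, SD 0.85), wild type at 14 mg/kg (9.88, SD 0.11) and A-CREB at 14 mg/kg (10.05, SD 0.21). The saline neighbours did not differ beyond their spread, nor did the kainate neighbours, and the one step beyond the spread was that from saline to kainate. The order of 1436387_at was A-CREB saline (10.37, SD 0.24), wild-type saline (11.42, SD 0.92), A-CREB at 18 mg/kg (12.99, SD 0.52), wild type at 14 mg/kg (13.51, SD 0.15) and A-CREB at 14 mg/kg (13.63, SD 0.21). The order was the same, and the step between the saline groups was wider. Within kainate the 14 mg/kg groups overlapped. Both A-CREB arrays at 18 mg/kg (6309 and 10497) were below both wild-type arrays at 14 mg/kg (12575 and 10812). The share of all probe sets with such an order was not computed, so nothing is read from it. Levels are compared within a probe set only, since each has its own brightness.

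Before kainate, 1436387_at was the Homer probe set that differed most between genotypes. Both A-CREB saline arrays (1465 and 1152) were below both wild-type ones (4297 and 1726), a log2 difference of -1.06 (SE 0.39, interval -1.93 to -0.19), or 2.08-fold lower in A-CREB. The A-CREB saline arrays belong to the contrasts that selected Homer1. The difference is therefore a description without a p-value, and nothing is read from the counts below. It was -0.40 without wild-type saline replicate 1 and -1.71 without wild-type saline replicate 2. On wild-type saline replicate 1 Arc read 1924 against 913 on replicate 2, and Fos 2293 against 1417. The A-CREB saline arrays, replicates 1 and 2, read 1494 and 360 for Arc, and 1493 and 1688 for Fos. The part of these differences in the Homer1 value was not tested. None of 10 Homer probe sets passed the adjusted test between the saline groups, where 0 of 27023 did (0%), and 1 of 10 had an unadjusted p under 0.05, against 1.3% (350 probe sets) of all. The other 5 Homer1 probe sets differed by between -0.18 and 0.15.

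At the shared dose of 14 mg/kg the 2 genotypes were close on every Homer1 probe set. On 1425671_at A-CREB minus wild type was 0.18 (SE 0.51, interval -0.97 to 1.33), and on 1436387_at it was 0.11 (SE 0.39, interval -0.76 to 0.99). The largest of the 6 by size was -0.22 on 1437363_at (interval -0.72 to 0.28), whose A-CREB arrays were both below the wild-type arrays. None of 10 Homer probe sets passed (adjusted p = 1 for each, limma; 0 of 27023 in all, 0%), and 0 of 10 had an unadjusted p under 0.05, against 1.04% (280 probe sets). The intervals on these probe sets reached up to 1.33 on the log2 scale, so the likeness of the means does not show that the genotypes responded alike.

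The difference of the responses, A-CREB minus wild type, was 1.17 on 1436387_at (SE 0.55, interval -0.06 to 2.40) and 0.20 on 1425671_at (SE 0.72, interval -1.42 to 1.82). On 1436387_at the genotypes differed by -1.06 after saline and by 0.11 after kainate. Both values leaned on the wild-type saline arrays: without replicate 1 the difference of the responses was 0.52 on 1436387_at and -0.61 on 1425671_at, and without replicate 2 it was 1.82 and 1.02. On 1421768_a_at the difference was -0.22 (interval -1.62 to 1.18), and it was -0.95 without replicate 1 and 0.51 without replicate 2. The Homer2 and Homer3 probe sets did not pass this test (adjusted p = 1 for each, limma), nor did any of 27023 probe sets (0%, and 159 at an unadjusted p under 0.05).

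Within A-CREB no Homer1 probe set was higher on average at 18 than at 14 mg/kg. The log2 difference was -0.63 on 1436387_at (SE 0.39, interval -1.50 to 0.24), -0.39 on 1421768_a_at (interval -1.38 to 0.60) and -0.35 on 1425710_a_at (interval -1.17 to 0.47). On these probe sets both arrays at 18 mg/kg were below both at 14 mg/kg. The share of all probe sets with such an order was not computed, so nothing is read from it. On 1425671_at the difference of -0.60 (SE 0.51, interval -1.74 to 0.55) was mostly that of replicate 1 (441 against 940, beside 1046 against 1154 on replicate 2). Without the 18 mg/kg replicate 1 array the difference was 0.01 on 1425671_at, -0.27 on 1436387_at and -0.0741 on 1421768_a_at. None of 10 passed (adjusted p = 1 for each, limma; 0 of 27023, 0%), and 0 of 10 had an unadjusted p under 0.05, against 0.477% (129 probe sets).

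Homer2, a long-form scaffold, showed no such response on any of its 3 probe sets. The brightest, 1424367_a_at, read 2901 and 1740 after saline and 2044 and 1510 after kainate in wild type. With A-CREB it read 2275 and 1352 after saline, 1550 and 1683 after 14 mg/kg, and 1896 and 1511 after 18 mg/kg. Its log2 changes were -0.35 in wild type (interval -1.04 to 0.34), -0.12 in A-CREB at 14 mg/kg and -0.05 at 18 mg/kg (adjusted p = 1 for each, limma). Arrays numbered 2 differed from those numbered 1 by -0.42 on the log2 scale on this probe set (adjusted p = 0.0214, limma). Such a difference passed for 3 of 10 Homer probe sets, the others being Homer1 1439662_at (-0.37, adjusted p = 0.0348, limma) and the Homer3 probe set, against 33.4% of all probe sets, so it was not particular to them.

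The steadiest of all 10 was Homer2 1457671_at, with signals between 1228 and 1643. It read 1581 and 1552 after saline and 1378 and 1643 after kainate in wild type. In A-CREB it read 1275 and 1457 after saline, 1228 and 1337 after 14 mg/kg, and 1441 and 1475 after 18 mg/kg. Its changes were -0.06 (interval -0.43 to 0.32), -0.09 (interval -0.46 to 0.29) and 0.10 (interval -0.28 to 0.47), the narrowest intervals of the 10. Both A-CREB saline arrays were below both wild-type ones, by -0.20 (interval -0.58 to 0.18, adjusted p = 1, limma), and at 14 mg/kg both A-CREB arrays were again lower, by -0.23 (interval -0.61 to 0.15).

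The dimmest Homer2 probe set, 1436110_at, read 250.0 and 125 after saline and 153 and 214 after kainate in wild type. The A-CREB readings were 208 and 183 after saline, 158 and 212 after 14 mg/kg, and 139 and 198 after 18 mg/kg. The groups overlapped throughout, and the changes of 0.02, -0.08 and -0.21 had intervals from -0.79 to 0.84, -0.89 to 0.73 and -1.02 to 0.60 (adjusted p = 1 for each, limma).

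Homer3, the member best known from cerebellum, had 1 probe set, 1424859_at, with detectable but moderate signal. It read 214 and 570 after saline and 501 and 541 after kainate in wild type. In A-CREB it read 339 and 547 after saline, 426 and 462 after 14 mg/kg, and 310 and 595 after 18 mg/kg. The log2 changes were 0.54 in wild type (interval -0.45 to 1.52), 0.04 in A-CREB at 14 mg/kg (interval -0.95 to 1.03) and 0.00 at 18 mg/kg (adjusted p = 1 for each, limma). The wild-type value came from replicate 1 alone: the log2 change within replicate 1 was 1.15 and within replicate 2 it was -0.07. In all 5 groups the array numbered 2 was the higher, by 0.62 on the log2 scale (adjusted p = 0.0177, limma), a test that 33.4% of all probe sets passed.

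**Figure D3:**
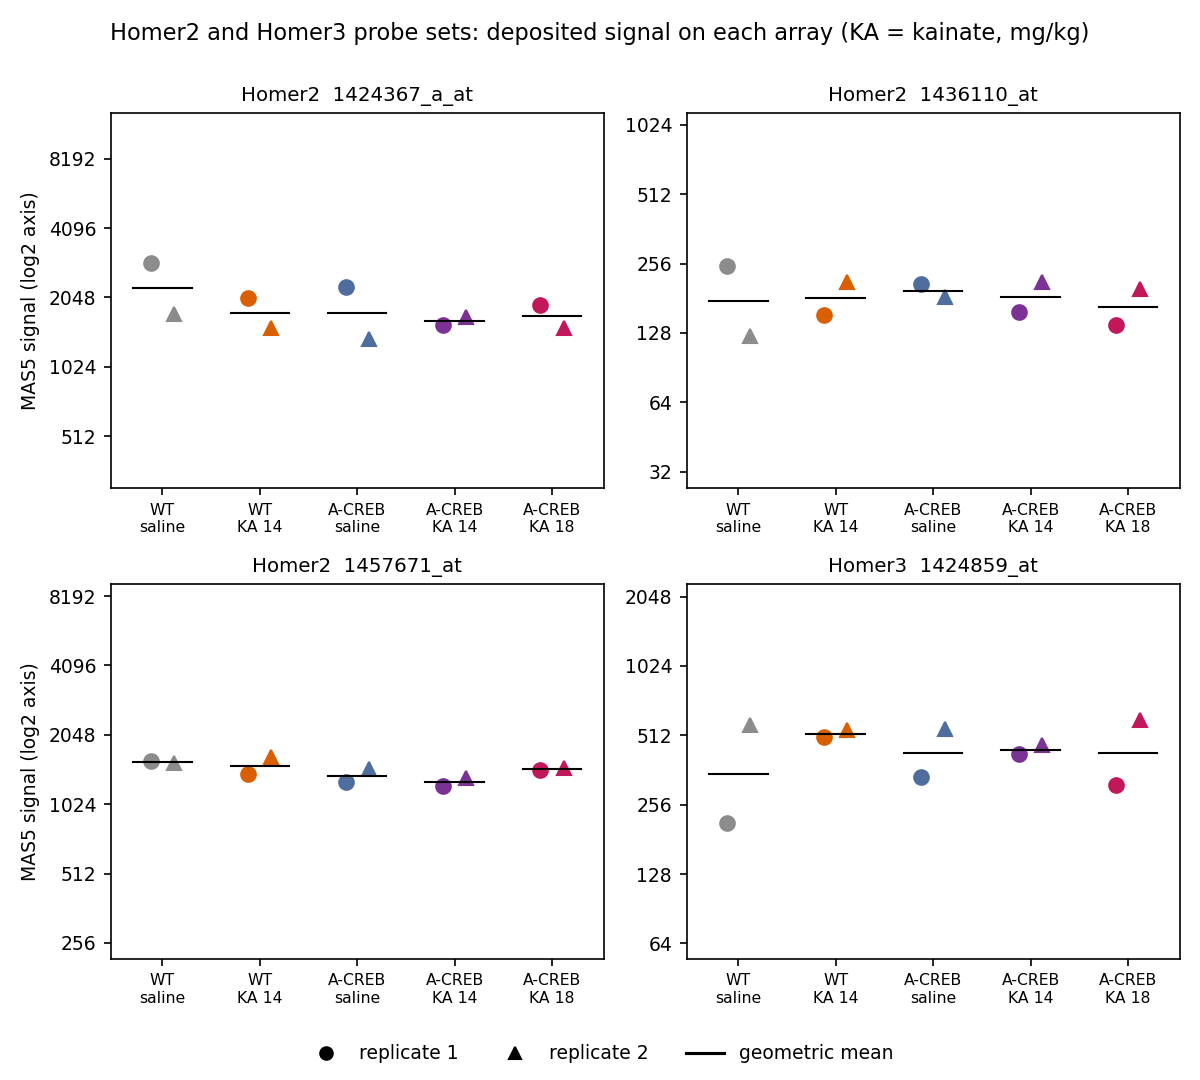
Deposited MAS5 signal (log2 axis, the same span in every panel) of the 3 Homer2 probe sets and the Homer3 probe set on each array, by group; circles are replicate 1, triangles replicate 2 and lines the geometric mean of the 2. Saline and kainate arrays overlap in every panel, and on the Homer3 probe set the triangle is above the circle in 5 of 5 groups.

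Over the 10 arrays, after centring each replicate number on its own mean, the 3 Homer1 probe sets with higher kainate signal went together: Pearson's r was 0.96 between 1425671_at and 1436387_at, 0.90 between 1421768_a_at and 1425671_at, and 0.85 between 1421768_a_at and 1436387_at. Among the 3 other Homer1 probe sets r was 0.73 between 1425710_a_at and 1439662_at, 0.70 between 1437363_at and 1439662_at, and 0.49 between 1425710_a_at and 1437363_at. Between these 3 and the first 3, r ran from -0.06 (1425671_at and 1439662_at) to 0.54 (1421768_a_at and 1425710_a_at). The highest of those was above the lowest among the 3 other probe sets, so the sets were not cleanly apart. Homer2 1436110_at went with Homer1 1425710_a_at (r = 0.89). These points share the saline to kainate step, pools and arrays, and the values are given as a description.

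By the same measure the genes most like 1425671_at were Lonrf3 (r = 0.99), Rasd1, a small G protein (0.99), Rgs4, a regulator of G protein signalling (0.99), Csrnp1 (0.98) and Rnd3 (0.98). Those most like 1436387_at were Nptx2, a secreted pentraxin of synapses (0.99), Grasp, the gene of the group I receptor scaffold Tamalin (0.99), Rgs4 (0.98), Egr3, an activity-regulated transcription factor (0.98), and Inhba, a subunit of activin (0.98). For 1421768_a_at the nearest were Etv3 (0.95) and Xbp1 (0.94). For the remaining Homer probe sets the nearest genes were other ones: Tnpo2 for 1425710_a_at (0.96), Chchd10 for 1437363_at (0.95), Slc9a5 for 1439662_at (0.95), Gm26588 for Homer2 1424367_a_at (0.93), Klf9 for 1436110_at (0.97), Kctd1 for 1457671_at (0.97) and Gm41810 for Homer3 (0.96). The nearest of 27023 probe sets is high by selection alone.

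Genes whose proteins Homer binds were read from a list. Of 17 listed partners 12 had a tested probe set, and 0 of 12 passed in any of the 7 comparisons, with or without the block. With at most 0.174% of all probe sets called in a comparison, or 0.729% with the block, a count of 0 says nothing particular about them. The count at an unadjusted p under 0.05, 0 of 12, likewise stands beside 0.477% to 3.83% of all. Their median log2 change was -0.06 in wild type (-0.04 over all tested probe sets), and -0.17 (-0.03) and -0.12 (0.00) in A-CREB at the lower and the higher dose. Grm5, a group I receptor of the hippocampus, had values of 0.03, 0.00 and -0.13 in the 3 comparisons (SE 0.17), and Shank3 of -0.24, -0.23 and -0.24 (SE 0.31), none of which passed. The widest values, -0.97 for the inositol trisphosphate receptor Itpr3 in A-CREB at 14 mg/kg (SE 0.57) and 0.88 for the ryanodine receptor Ryr1 at 18 mg/kg (SE 0.77), did not pass either. Shank1 was below the filter, and the remaining listed partners were not analysed here.

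Other scaffold genes of the postsynaptic density (12 of 14 tested) had 0 called in any of the 7 comparisons, again beside at most 0.174% of all probe sets. Their medians were -0.12 in wild type and -0.27 and -0.30 in A-CREB at the lower and the higher dose. The summed hippocampal neuron markers given above were lower in A-CREB after kainate too. Camk2a is on both lists, and the part of the markers in these medians was not tested. Dlgap1, which links the postsynaptic density scaffold to Shank, was the 1 gene of 12 with an unadjusted p under 0.05, in each of 3 comparisons (1.3%, 3.83% and 2.48% of all probe sets). These share the 2 A-CREB saline arrays, on which it read 4815 and 4818, and are not separate observations. It was 0.41 higher in A-CREB than in wild-type saline (SE 0.16, unadjusted p = 0.0294 and adjusted p = 1 by limma), and its log2 change in A-CREB was -0.40 at 14 mg/kg and -0.44 at 18 mg/kg, with adjusted p = 1 in each by limma.

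Of the group I receptor signalling list 8 of 12 had a tested probe set, and 0 of 8 passed without the block, although 1 of 8 (Tamalin) had an unadjusted p under 0.05 in each kainate comparison (2.7%, 3.83% and 2.48% of all probe sets). With the block 1 of 8 passed, in A-CREB at 14 mg/kg, against 0.729% of all: Tamalin, a scaffold that ties group I receptors to trafficking proteins. Its signal was 4761 and 3859 after saline and 6712 and 8353 after kainate in wild type, and 3250 and 3729, then 7195 and 8408, then 5327 and 7107 in A-CREB after saline, 14 and 18 mg/kg. No kainate array overlapped a saline array. The log2 changes were 0.80 (SE 0.20, adjusted p = 0.753, 0.0788 with the block), 1.15 (adjusted p = 0.100, 0.00467 with the block) and 0.82 (adjusted p = 0.639, 0.0653 with the block, limma). The list's medians, 0.01, -0.01 and -0.10, stood near those of all tested probe sets.

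**Figure D4:**
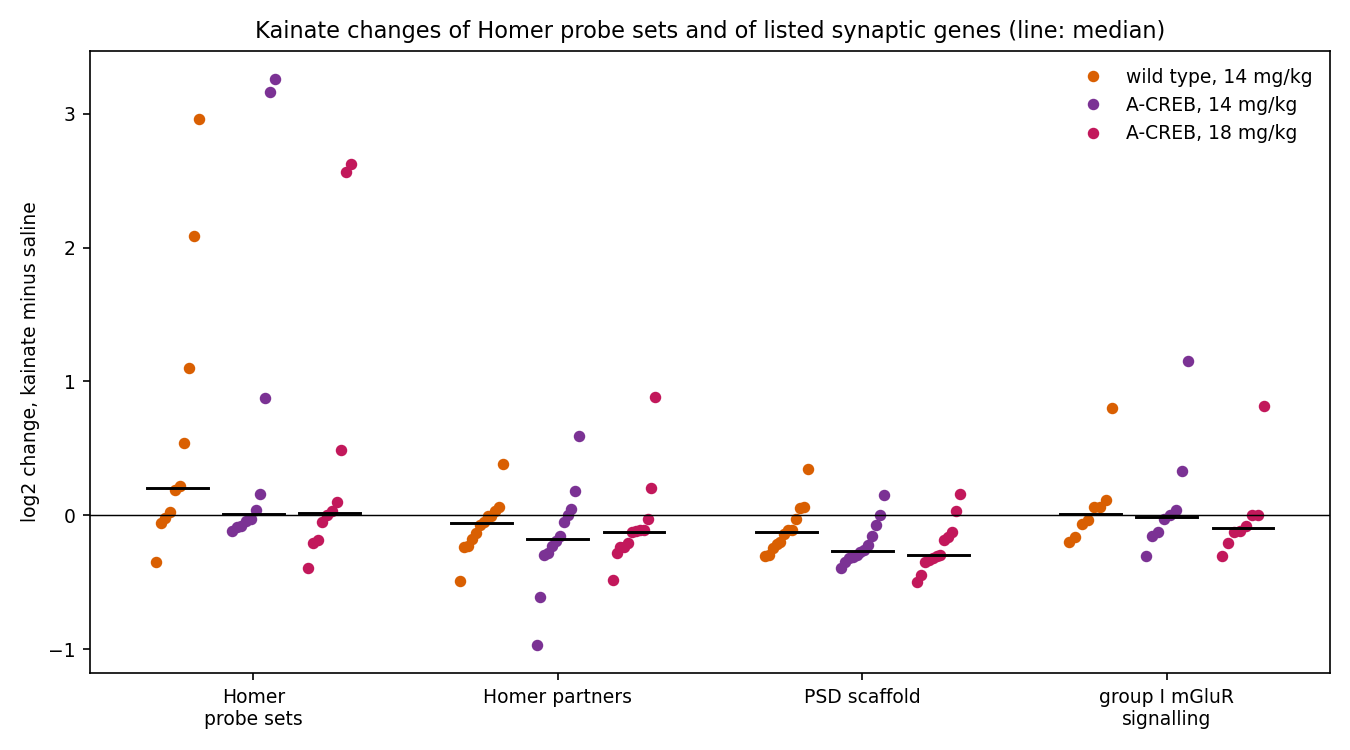
Log2 change, kainate minus saline, of the 10 Homer probe sets and of 1 probe set for each tested gene of the lists of Homer partners (12), postsynaptic density (PSD) scaffold (12) and group I mGluR signalling (8); each point is a probe set, colours are the 3 comparisons and lines the medians. Points above 2 occur among the Homer probe sets only (1425671_at and 1436387_at), and the highest in the signalling list is Tamalin, from 0.80 to 1.15.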

How the data were processed

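Per the labels, biotin-labelled RNA of 10 hippocampal pools was read on 10 arrays. The authors deposited intensity values, the linear MAS5 signal of each probe set, made with MAS5 in GCOS, per the submitters' processing notes. Their settings were not given in the sources used here. MAS5 subtracts mismatch probes, which makes low signals noisy. The 2% trimmed mean of each array was 500.002 to 500.003, so total RNA content cannot be compared. Of 45101 probe sets, 64 were controls, 34945 named 1 gene, 932 several and 9160 none in the platform annotation.

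Signals were taken as log2(signal + 22), 22 being the 20th percentile of all signals. The upper 60% of probe sets by mean (27023) were fitted with limma 3.58.1 (R 4.3.3; lmFit, eBayes with an intensity trend), with 5 group means over all 10 arrays, and p-values were adjusted by Benjamini-Hochberg over all 27023 for each of 7 contrasts (called at an adjusted p under 0.05, two-sided). The script was tested on simulated data. The number of arrays, 2 a group, limits the precision.

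The replicate numbers paired the arrays: for all 10 pairs of groups, same-numbered arrays deviated together from their group means (r from 0.51 to 0.63), and 10 of 10 arrays correlated best with one of their own number. What a number stands for is not stated in the labels. Median signal was 94.9 to 106 on number 1 and 135 to 152 on number 2. The fit with the number as a block is therefore printed where it changes a count.

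Members, gene lists and tests were chosen with earlier results of these data known. Named genes are all Homer probe sets, the listed partners Grm5 and Shank3 with any list gene called, the 5 genes most correlated with each Homer probe set (fewer are given for some), and Fos, Npas4 and Arc as a check of kainate. Itpr1 and the other Shank genes, also planned, had no tested probe set and so no value. Itpr3, Ryr1 and Dlgap1 were named after their values were seen. A list gene was read by its brightest tested probe set. Promoter windows are those of RefSeq on GRCm38.p6, and motifs were searched on both strands with Python 3.11.15. Alternatives were other pseudocounts, filters, normalizations and variance settings, the block, only the groups compared, and leaving out each array.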

Additional observations from a re-analysis of the deposited data

How the results depend on the processing

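The count of Homer probe sets called in wild type after kainate was 0 in the fit described, 2 with the replicate block, and 0 on leaving out any 1 array. In A-CREB at 14 mg/kg it was 1, and 2 with the replicate block, with a pseudocount 4 times as large, with the upper 40% of probe sets (9 Homer probe sets tested), with array weights or with only the groups compared. It was 0 with no intensity trend, and 0 to 2 on leaving out each array. In A-CREB at 18 mg/kg it was 0, 2 with the replicate block, and 0 to 1 on leaving out each array. The block changed no other call of a Homer probe set. The 4 other comparisons had 0 called Homer probe sets under every alternative run. Why these counts moved was not tested, and a group left with 1 array was assumed to vary like the others.

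Over the 71 results and 1483 alternatives, 1435 kept their side of the threshold and turned sign by no more than 1 standard error, 15 moved past it, 5 fell short of it and 1 value moved: the range among Homer1 probe sets in wild type, 2.40 with the larger pseudocount. In wild type, 1425671_at ranged from 2.15 to 3.78 and 1436387_at from 1.44 to 2.74 on leaving out each array, with adjusted p (limma) over all alternatives from 0.0185 to 1 and from 0.0243 to 1.

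The sign turned, by more than 1 standard error, in 27 cases, all on leaving out 1 array and none of a called value. Those log2 changes ranged as follows. In wild type after kainate they were -0.35 to 0.79 (1425710_a_at), -0.0729 to 0.46 (1437363_at), -0.44 to 0.40 (1439662_at), -0.72 to 0.0138 (1424367_a_at), -0.42 to 0.47 (1436110_at) and -0.13 to 1.20 (1424859_at). In A-CREB at 14 mg/kg the range was -0.49 to 0.25 (1424367_a_at). In A-CREB at 18 mg/kg they were -0.22 to 0.28 (1437363_at), -0.42 to 0.32 (1424367_a_at) and -0.45 to 0.45 (1424859_at). Between genotypes after saline they were -0.60 to 0.86 (1421768_a_at), -0.84 to 0.79 (1425671_at), -0.42 to 0.72 (1425710_a_at), -0.45 to 0.0820 (1437363_at), -0.54 to 0.30 (1439662_at), -0.72 to 0.0172 (1424367_a_at), -0.32 to 0.57 (1436110_at) and -0.39 to 0.94 (1424859_at). For the difference of responses they were -0.95 to 0.51 (1421768_a_at), -0.61 to 1.02 (1425671_at), -0.83 to 0.31 (1425710_a_at), -0.42 to 0.42 (1439662_at) and -1.16 to 0.17 (1424859_at). Between doses they were -1.20 to 0.00590 (1425671_at), -0.37 to 0.12 (1437363_at) and -0.49 to 0.41 (1424859_at). The cause was not tested. Signal over background limits the dim probe sets, and 2 arrays a group limit all.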
